A study of Mus musculus with 2 samples.

Results

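The subject is the occupancy of the vitamin D receptor (VDR) at 42 genes of the transforming growth factor beta (TGF-beta) and bone morphogenetic protein (BMP) pathways, out of 21883 protein-coding genes with a mapped span. The genes were taken from a list of names, drawn up when earlier results of these peak lists were known, and a VDR peak was counted for a gene when its summit lay inside the gene's RefSeq span or within 10 kb of either end of it. Chromatin came from left ventricles of mouse embryos at stage E16.5, with 1 library from offspring of mothers on a normal diet and 1 from offspring of mothers on a vitamin D deficient diet. DNA cross-linked to VDR was recovered with an antibody and sequenced (ChIP-seq), and 1 peak list per diet was deposited. The labels give neither the strain nor the number of embryos or litters behind a library, and a peak list carries no expression values against which the tissue label could be checked. With 1 library per diet no test between diets was possible, so every comparison below is between these libraries and diet cannot be told apart from library.

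VDR is a nuclear receptor that, bound to the hormone form of vitamin D, pairs with a retinoid X receptor on DNA. TGF-beta and BMP ligands are secreted proteins that bring type I and type II receptor kinases together on the cell surface. The receptors phosphorylate SMAD proteins, which join the common partner SMAD4 and enter the nucleus. Inhibitory SMADs, SMURF ubiquitin ligases and secreted antagonists hold the signal in check. In the embryonic heart this signalling is known for its part in valve and septum formation, in growth of the ventricular wall and, with endothelial receptors, in vessels.

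The normal-diet list held 23456 peaks and the deficient-diet list 37661. The lowest background in the lists, read as the genome-wide level, was 2.65 fragments for the normal diet against 5.38 for the other, a ratio of 2.03, so the lists differ in depth. Raw numbers of peaks are therefore given beside the numbers for other genes in the same list. Each peak is described by the authors' -log10 q, which is the significance of its summit after adjustment for multiple testing, and by its pileup, which is the number of fragments at the summit as recovered from the deposited values.

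Annotated starts were listed in the RefSeq promoter table for 32 of the 42 members, as 39 windows from 250 bases before to 50 after a start. In 3 of these windows lay part of a VDR peak, so their sequences are shown here with the bases inside the peak in capitals, 5′ to 3′ on the strand of the gene. They are from build GRCm38.p6, which is mm10. The first is the start of Smad1, which encodes a SMAD activated by BMP receptors (minus strand, chr8:79399379-79399678), where the peak was in the normal-diet list. The next is the start of Grem1, which encodes the BMP antagonist gremlin (minus strand, chr2:113758599-113758898), with a deficient-diet peak. The last is 1 of 3 listed starts of Bmpr1b, a type I BMP receptor (minus strand, chr3:141982215-141982514), also with a deficient-diet peak.
Smad1: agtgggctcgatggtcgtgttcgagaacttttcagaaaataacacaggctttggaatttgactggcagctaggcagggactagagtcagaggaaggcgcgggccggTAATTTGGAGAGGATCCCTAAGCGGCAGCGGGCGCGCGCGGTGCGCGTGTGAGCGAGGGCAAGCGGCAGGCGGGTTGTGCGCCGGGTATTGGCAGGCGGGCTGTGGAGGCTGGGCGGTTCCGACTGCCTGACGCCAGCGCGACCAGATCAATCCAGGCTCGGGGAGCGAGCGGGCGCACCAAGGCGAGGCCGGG
Grem1: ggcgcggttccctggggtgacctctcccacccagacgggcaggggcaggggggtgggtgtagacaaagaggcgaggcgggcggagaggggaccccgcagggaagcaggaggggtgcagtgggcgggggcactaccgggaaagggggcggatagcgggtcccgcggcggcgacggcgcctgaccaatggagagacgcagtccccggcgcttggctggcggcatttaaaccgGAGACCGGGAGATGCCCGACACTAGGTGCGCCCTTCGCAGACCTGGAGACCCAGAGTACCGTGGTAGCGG
Bmpr1b: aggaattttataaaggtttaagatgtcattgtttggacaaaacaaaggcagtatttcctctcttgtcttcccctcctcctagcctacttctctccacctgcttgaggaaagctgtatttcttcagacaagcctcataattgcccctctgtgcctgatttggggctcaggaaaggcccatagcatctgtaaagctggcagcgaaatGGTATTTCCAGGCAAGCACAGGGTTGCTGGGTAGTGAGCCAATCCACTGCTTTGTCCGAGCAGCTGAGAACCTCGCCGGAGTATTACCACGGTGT

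The peak covered 194 bases of the Smad1 window, 70 of the Grem1 window and 95 of the Bmpr1b window. Smad1 had a pileup of 16 over a background of 4.28, which was 1.61 times the genome-wide level, and its summit lay 22 bp upstream of the start. Grem1 had a pileup of 21 over 5.38, with the summit 62 bp downstream of the start. At the Bmpr1b start the pileup was 24 over 5.38, with the summit 78 bp downstream. By -log10 q the Smad1 peak, at 2.87 and rank 21888 of 23456, was among the weakest of its list. The Grem1 peak had 3.95 at rank 19854 and the Bmpr1b peak 5.29 at rank 7370 of 37661. None of the 3 peaks had an overlapping peak in the other list. Over all 32851 listed promoter windows, 5.24% overlapped a normal-diet peak and 5.41% a deficient-diet peak, against 1 and 2 of the 39 member windows, so these windows did not hold peaks more often at members than elsewhere.

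Motif letters were searched on both strands of the promoter windows. No member window held 2 hexamers (each AGGTCA or AGTTCA) in the same direction with 3 bases between them, the arrangement known for VDR with its retinoid X partner. That pair occurred in 4 of all 32851 windows, or 0.0122%. A single hexamer of either kind was found in 5 of 39 member windows (12.8%) and in 27.7% of all windows. Of the sequences shown, the Grem1 window held 1 such hexamer, as its reverse complement at position 18 counted from 1 at the 5′ end, and 1 GGCGCC at position 173, both outside the peak. The SMAD-binding palindrome GTCTAGAC was found in 1 member window, that of the inhibitory SMAD gene Smad6, and in 0.213% of all windows. No peak of either list overlapped the Smad6 window. The GC-rich SMAD element GGCGCC was found in 11 member windows (28.2%) and in 11.9% of all windows. Among the 11 were overlapping windows of Smad5 that held the same site. Member windows were also richer in G and C, with a median of 64.0% against 52.7% over all windows.

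A VDR peak of the normal-diet list was found at 27 of the 42 members (64.3%), where 49.8% of all protein-coding genes had one. In the deficient-diet list 28 members (66.7%) had a peak, against 59.5% of protein-coding genes. The members are long genes, with a median span of 43.4 kb against 17.2 kb for protein-coding genes, and long genes hold more summits. Among protein-coding genes of like span (within 1.25 times of each member's span) the mean share was 55% in the former list and 65.3% in the latter. These shares amount to 23.1 and 27.4 of 42 genes. The deficient-diet count of 28 was at the level of genes of like span. The normal-diet count of 27 was a few genes above it, a difference that was not tested. Among peaks with a -log10 q of at least 5 neither count was above that level. The shares were 26.2% of members against 27.9% of genes of like span (normal diet) and 21.4% against 28.6% (deficient diet). Both lists had a peak at 23 members (54.8%), where 40.7% of all protein-coding genes and 45.7% of those of like span did. Neither list had one at 10 members (23.8%), where 31.3% of all protein-coding genes and 25.4% of those of like span lacked one.

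The members held 64 normal-diet and 86 deficient-diet peaks. Genes of like span would have held 50.7 and 80.0 on average. Per 100 kb of gene and flank this was 1.72 normal-diet peaks at members against 1.5 at all protein-coding genes, and 2.32 deficient-diet peaks against 2.30. Inside the spans lay 50 normal-diet and 66 deficient-diet summits. The summit lay nearer to another protein-coding gene than to the member for 6 and 9 peaks. Without those, 27 members kept a normal-diet peak and 27 a deficient-diet peak.

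**Figure D1:**
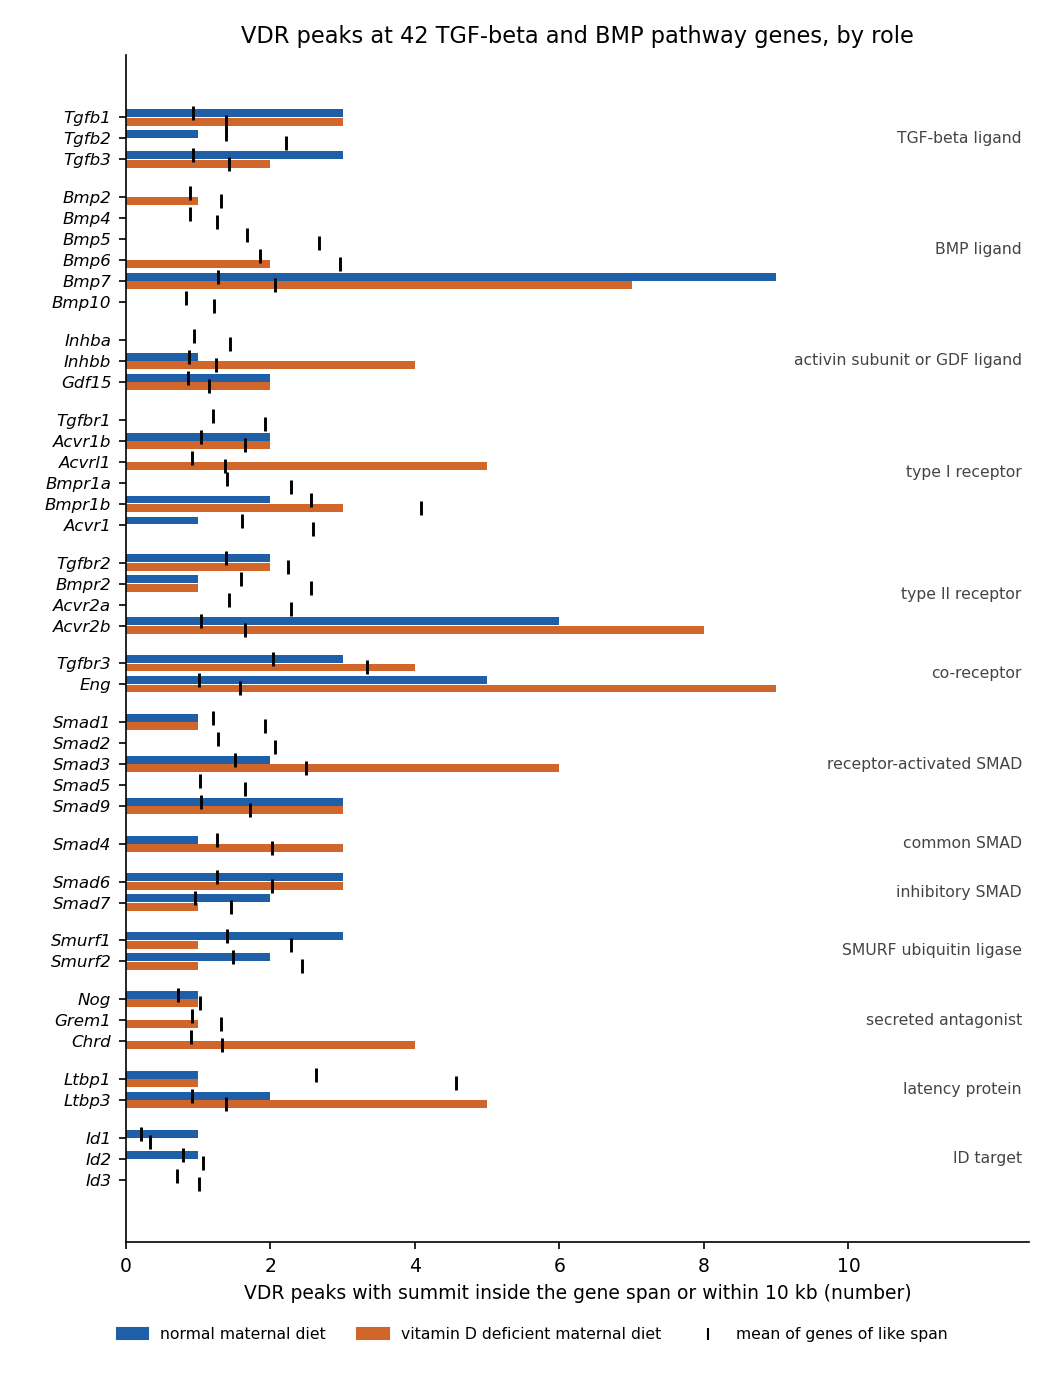
Number of VDR peaks (horizontal axis) at each of the 42 members (vertical axis, grouped by role) in the normal-diet list (blue bars) and the deficient-diet list (orange bars), with the mean number at protein-coding genes of like span as black marks. Bmp7, Acvr2b and Eng have the longest bars, with 9, 6 and 5 normal-diet and 7, 8 and 9 deficient-diet peaks, and 10 members have no bar.

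Among the TGF-beta ligands, all 3 genes had a normal-diet peak and 2 of them a deficient-diet peak. Tgfb1, a ligand with wide roles in matrix and vessel growth, had 3 peaks in each list, where genes of its span had means of 0.924 and 1.39. Its first overlapping site lay inside the gene, 815 bp (normal diet) and 919 bp (deficient diet) downstream of the start, at chr7:25687767-25688082 and chr7:25687782-25688029. The pileup there was 19 fragments (normal diet) and 25 (deficient diet), with -log10 q of 6.22 and 5.29. Another overlapping site followed, with summits 2158 and 1979 bp from the start and pileups of 17 and 21. The strongest normal-diet peak of Tgfb1 lay 846 bp upstream of the start, inside the neighbouring gene B9d2, with a -log10 q of 7.68 and no overlapping deficient-diet peak.

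Tgfb3, the ligand known for palate and valve development, had 3 normal-diet peaks and 2 deficient-diet peaks. Their overlapping site lay just outside the span, 590 and 480 bp from its upper end, with pileups of 18 and 24. Tgfb2, a ligand of the outflow tract and the valve cushions, had 1 normal-diet peak deep inside the gene with a pileup of 14, and its nearest deficient-diet summit was 47.1 kb away.

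The BMP ligands fell apart into Bmp7 and the rest. Bmp7, a BMP made in the heart muscle, held 9 normal-diet peaks, all inside its 72.3 kb span. As many or more were found at 0.762% of the 1575 protein-coding genes of like span. In the deficient-diet list Bmp7 held 7 peaks, and 6.98% of the same genes had as many. The lists overlapped at 3 sites, at chr2:172869814-172869994, chr2:172910930-172911110 and chr2:172939182-172939507 in the normal-diet list. The middle site had its summit on the same base in both lists, with pileups of 16 and 23. At the last site, near the upper end of the span, the pileups were 19 and 25 and the summits lay 239 bp apart. The other 6 normal-diet and 4 deficient-diet peaks of Bmp7 had no partner, among them its strongest normal-diet peak (-log10 q of 8.27, pileup 23) and its strongest deficient-diet peak (6.37, pileup 26).

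Of the other BMP genes, Bmp2 and Bmp6 had 1 and 2 peaks in the deficient-diet list and none in the normal-diet list. BMP2 drives formation of the atrioventricular cushions and BMP6 acts with BMP7 in the cushions. The Bmp2 peak and the first Bmp6 peak lay 286 and 483 bp inside an end of the span, with pileups of 22 and 23. Bmp4, Bmp5 and Bmp10 had no peak in either list. Bmp10, the BMP of trabecular heart muscle, had its nearest normal-diet summit at 18.6 kb and its nearest deficient-diet summit at 93.3 kb. For Bmp4 these distances were 115 and 299 kb, and for Bmp5 24.0 and 24.3 kb.

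Of the remaining ligands, Inhbb, which encodes an activin subunit, had 1 normal-diet and 4 deficient-diet peaks without overlap. Among the latter, summits lay 274 bp downstream and 689 bp upstream of the start. Their pileups of 26 and 21 lay over a background of 7.76, which was 1.44 times the genome-wide level. The -log10 q values there were 3.96 and 2.39. Gdf15, a stress-induced ligand of the family, had 2 in each list, again without overlap. The Gdf15 summits lay 900 and 2009 bp (normal diet, pileup 16 at both) and 548 and 2260 bp (deficient diet, pileups of 19 and 25) downstream of the start. The deficient-diet ones stood over backgrounds of 5.82 and 8.73, with -log10 q of 2.83 and 3.09. Inhba, the other activin subunit gene, had none, with the nearest summits 35.5 and 69.2 kb away.

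Type II receptors differed among paralogs. Acvr2b, a receptor of activins and some BMPs known for its part in left-right patterning, had 6 normal-diet and 8 deficient-diet peaks, and 1.78% and 2.42% of genes of like span had as many. Its close relative Acvr2a had none, and its nearest summits were 131 kb away in both lists. Acvr2b held the strongest peak at any member in each list. In the normal-diet list this was chr9:119431148-119431443, inside the gene, with a pileup of 21 over 2.65, a -log10 q of 8.67 and rank 1084. It overlapped a deficient-diet peak with a pileup of 19 over 5.38 and a -log10 q of 3.16, so the site that led the members in one list was among the weaker ones in the other. In the deficient-diet list the strongest was chr9:119403058-119403282, 976 bp downstream of the start, with a pileup of 32, a -log10 q of 10.31 and rank 446, and it had no normal-diet partner. Acvr2b had 3 overlapping sites in all, with summits 254, 2 and 22 bp apart.

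Tgfbr2, the type II receptor for TGF-beta, had 2 peaks in each list at different positions. The normal-diet summit of Tgfbr2 nearest the start lay 450 bp downstream of it with a pileup of 16, and the nearest deficient-diet one 5212 bp downstream with a pileup of 22. Bmpr2, the type II receptor for BMPs, had 1 peak in each, overlapping by 89 bp, 1192 and 1530 bp upstream of the start, with pileups of 13 and 19. Both Bmpr2 peaks were weak, at ranks 20331 and 33224 of their lists.

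Among type I receptors, Acvrl1 showed the greatest difference in number. This receptor of endothelial cells, also called ALK1, had 5 deficient-diet peaks and no normal-diet peak, the nearest normal-diet summit being 48.3 kb from the span. Of genes of its span, 6.02% had 5 or more deficient-diet peaks and 50.3% had at least 1 normal-diet peak. The Acvrl1 pileups ranged from 20 to 26 fragments, around the deficient-diet median of 22. The highest stood over a background of 7.76, with its summit 261 bp beyond the upper end of the span. The highest -log10 q was 4.36, at a summit inside the neighbouring gene Ankrd33. Bmpr1b had 2 normal-diet and 3 deficient-diet peaks. Its overlapping site, chr3:142003079-142003336 in the normal-diet list, had summits 3 bp apart and the highest deficient-diet pileup of any member peak, 40 fragments over a background of 10.67, which was 1.98 times the genome-wide level. Acvr1b, an activin receptor, had 2 peaks in each list without overlap, and 1 normal-diet summit, with a pileup of 15, lay 351 bp inside the end far from its start. Acvr1, a BMP receptor, had 1 weak normal-diet peak. Tgfbr1, the type I receptor for TGF-beta, had none, with its nearest summits at 25.3 (normal diet) and 38.7 kb (deficient diet). Bmpr1a, a type I BMP receptor, had none within the window and its nearest summits at 11.8 and 11.9 kb.

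The co-receptors differed from each other in how they stood against genes of their span. Eng, which encodes endoglin, an endothelial partner of ALK1, had 5 normal-diet and 9 deficient-diet peaks, and 2.73% and 1.24% of genes of like span had as many. None of the 14 overlapped a peak of the other list. Its strongest peaks were 12774 bp (normal diet, -log10 q 7.80, pileup 20) and 4493 bp (deficient diet, 6.96, pileup 28) downstream of the start. The deficient-diet peak of Eng farthest out lay 9969 bp from the end, inside Fpgs and just within the 10 kb limit. Tgfbr3, which encodes betaglycan, a co-receptor that presents TGF-beta, had 3 and 4 peaks, where genes of its span had means of 2.04 and 3.33 and 27.5% and 30.4% of them had as many. Their overlapping site lay 679 and 354 bp inside the upper end of the span, with pileups of 17 and 24.

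**Figure D2:**
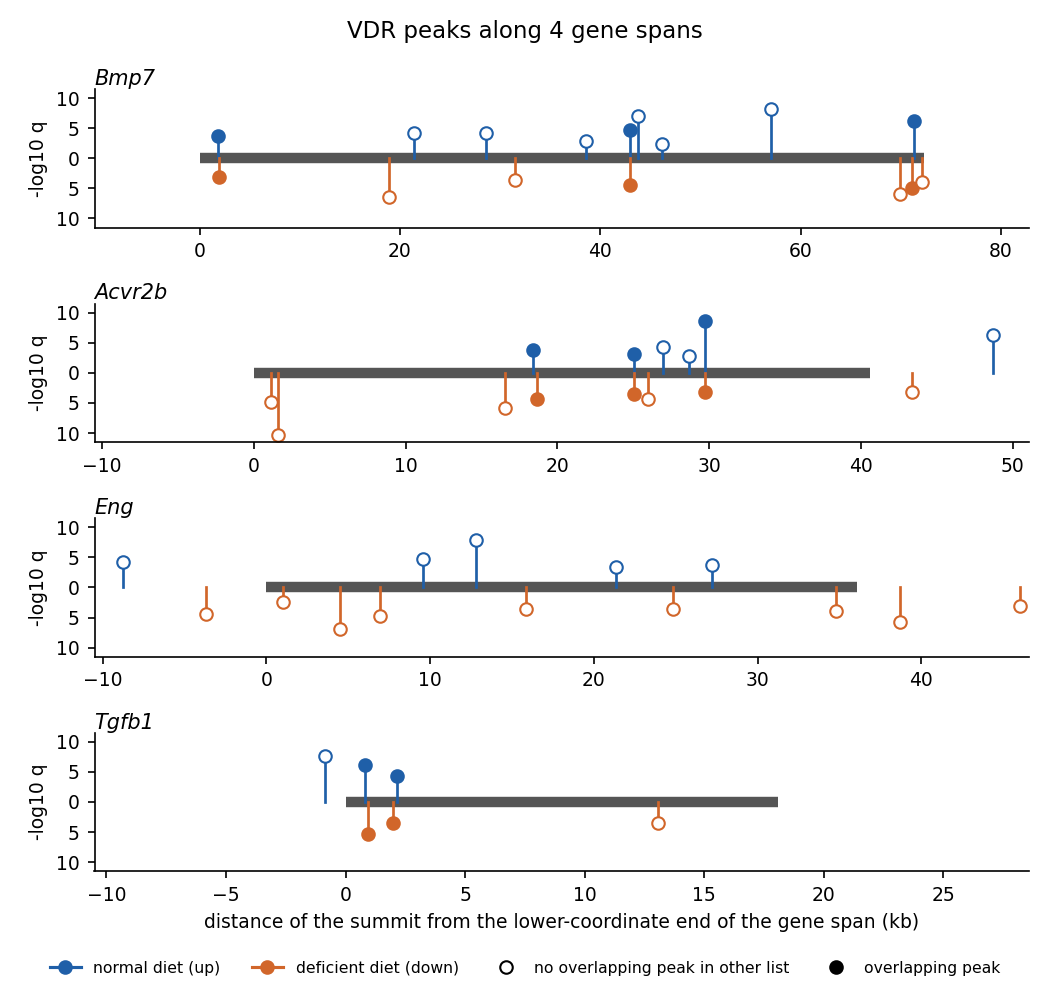
Position of each VDR summit along 4 genes, in kb from the lower-coordinate end of the span (grey bar), with the authors' -log10 q upward for the normal-diet and downward for the deficient-diet list. Filled circles overlap a peak of the other list: 3 sites in Bmp7, 3 in Acvr2b, 2 in Tgfb1 and none in Eng.

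Of the SMADs activated by receptors, Smad3, a mediator of TGF-beta and activin signals, had 2 normal-diet and 6 deficient-diet peaks. Lists overlapped at 1 site inside Smad3, 41824 and 41699 bp downstream of the start, with pileups of 13 and 23. A further deficient-diet summit lay 318 bp downstream of the Smad3 start with a pileup of 20. Smad9 had 3 peaks in each list without overlap. Normal-diet summits 6161 and 9545 bp beyond the upper end of Smad9 lay nearer to the gene Rfxap. Smad1 had 1 peak in each list, 22 and 3711 bp upstream of its start. Smad2, of the TGF-beta branch, and Smad5, of the BMP branch, had none. The nearest summits were 52.2 and 20.4 kb from Smad2 and 38 and 22.7 kb from Smad5. Smad4, the common SMAD, had 1 normal-diet and 3 deficient-diet peaks, and the lists overlapped 7016 and 6861 bp beyond its upper end, with pileups of 18 and 22. The inhibitory Smad6 and Smad7 had 3 and 2 normal-diet and 3 and 1 deficient-diet peaks, and none overlapped. A deficient-diet summit lay 551 bp inside the far end of Smad6 with a pileup of 23. The deficient-diet summit of Smad7 lay 458 bp beyond its upper end. Its pileup was 24 over a background of 7.76, with a -log10 q of 3.29.

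The ubiquitin ligase genes Smurf1 and Smurf2, whose products mark receptors and SMADs for destruction, were among the 9 members (21.4%) with more peaks in the shorter normal-diet list, where 16.7% of all protein-coding genes and 17.5% of those of like span had more there. Smurf1 had 3 against 1 and Smurf2 had 2 against 1. The normal-diet summits of Smurf2 lay 716 bp downstream of its start and 135 bp beyond its far end with pileups of 14 and 15. The deficient-diet summit of Smurf2 lay inside the neighbouring gene Cep95, with a -log10 q of 2.26 and rank 37028. The overlapping Smurf1 site lay inside the gene, 497 and 744 bp from the end far from its start, with -log10 q of 6.22 and 3.57. More deficient-diet peaks were found at 13 members (31.0%), against 38.4% of all protein-coding genes and 42.8% of those of like span. The same number above 0 was found at 10 (23.8%), against 13.6% and 14.4%.

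The secreted BMP antagonists had 1 normal-diet and 6 deficient-diet peaks, where genes of like span would have held 2.52 and 3.66. Nog, which encodes noggin, had 1 in each list, and the sites overlapped inside its 1.92 kb span, with summits 69 bp apart. The Nog pileups were 18 and 27 over backgrounds of 3.42 and 7.76, with -log10 q of 4.87 and 4.36. Chrd, which encodes chordin, had 4 deficient-diet peaks, as many as 10% of genes of its span, while the nearest normal-diet summit was 22987 bp away. The deficient-diet summit 796 bp outside the Chrd span lay inside the neighbouring gene Thpo, and another summit lay in both Chrd and Thpo. The Chrd pileups were 20 to 22 fragments, with -log10 q from 2.57 to 4.36. The TGF-beta latency proteins hold the latent ligand in the matrix. Ltbp1, the longest member at 387 kb, had 1 peak in each list, near the start and overlapping by 170 bp, where genes of its span had means of 2.63 and 4.57. Ltbp3, of 17.6 kb, had 2 and 5, and the lists overlapped at a site inside the neighbouring gene Znrd2.

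The ID genes, which encode inhibitors of basic helix-loop-helix factors and are classical BMP targets, had no deficient-diet peak. Id1 had 1 normal-diet peak inside the gene, 164 bp from an end, with a pileup of 19. Id2 had 1 at 5017 bp upstream of its start, with a pileup of 16. The nearest deficient-diet summits were 11958 bp from Id1 and 65652 bp from Id2. Id3 had no peak in either list, with the nearest summits 23.7 and 18.3 kb away. These are short genes, and a deficient-diet peak was found at 22.5% of genes of like span for Id1, 50.2% for Id2 and 49.5% for Id3.

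Peaks overlapping between the lists were found at 13 of 42 members (31.0%), against 22.6% of all protein-coding genes and 25.4% of those of like span. They formed 18 pairs, of which 14 lay inside the spans. Such sites, called in both libraries, are the nearest to a repeated measurement that these data hold. Of the member peaks, 28.1% (95% exact binomial interval 17.6 to 40.8%) of the normal-diet and 20.9% (12.9 to 31.0%) of the deficient-diet ones had a partner. The shares over the whole lists, 34% and 21.3%, lie within these intervals. The intervals cover counting error only. Summits of a pair were 0 to 338 bp apart, with a median of 129.5 bp, and 6 pairs had them within 100 bp, at Bmp7, Bmpr1b, Acvr2b and Nog. In 1 pair, at Tgfb1, both peaks had a -log10 q of 5 or more. Of the member peaks without a partner, 8.70% (2.42 to 20.8%) in the normal-diet list had a summit of the other list within 1 kb, against 13% over the whole list. In the deficient-diet list this share was 7.35% (2.43 to 16.3%), against 8.13%.

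The peaks at members were ordinary or weak for their lists. The median -log10 q was 4.28 at members and 4.49 over the whole normal-diet list, and 3.95 for members and list alike under the deficient diet. A -log10 q of 5 or more was reached by 17 of 64 normal-diet peaks, 26.6% (16.3 to 39.1%), against 35.0% of the list. In the deficient-diet list it was reached by 13 of 86, 15.1% (8.30 to 24.5%), against 24.3%. The intervals at members include the shares of the lists. The highest pileup was 23 fragments (normal diet) and 40 (deficient diet), and the medians, 16 and 22, equalled those of the lists. Background at the summit was at the genome-wide level for 39.1% (27.1 to 52.1%) of normal-diet member peaks, below the 52.6% of the list, and for 54.7% (43.5 to 65.4%) of deficient-diet ones, against 55.7%.

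**Figure D3:**
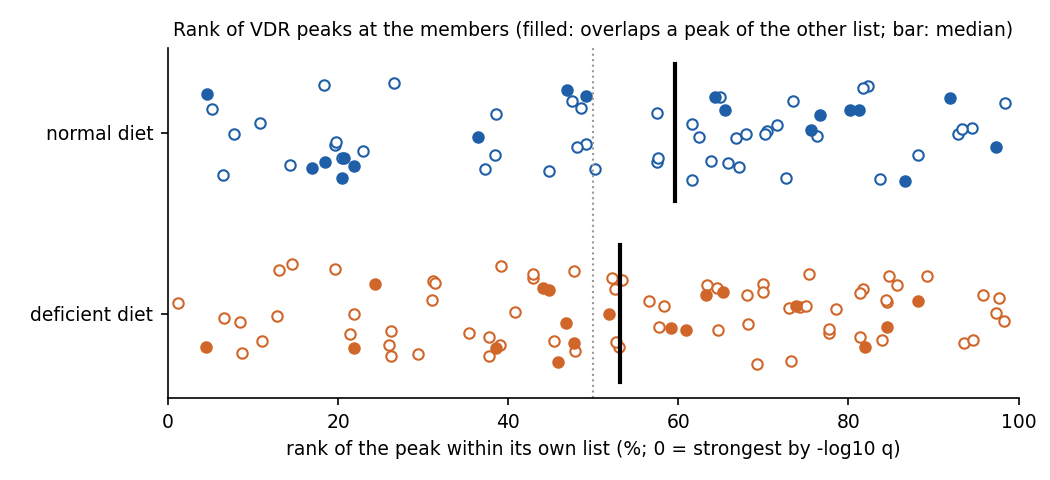
Rank of each member peak within its own list, as a percent of the list from strongest (0) to weakest (100), for the normal-diet (blue, 64 peaks) and deficient-diet list (orange, 86 peaks). Filled circles have an overlapping peak in the other list, black bars are medians at 59.6% and 53.2%, the dotted line marks the middle of a list, and vertical scatter within a row has no meaning.

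A summit within 1 kb of a gene end was more common at members than at other genes, while at a closer limit the normal-diet counts were nearly level. Among members with a promoter window of 60% GC or more, the normal-diet share was not above that of all such genes, while the deficient-diet share was. In the normal-diet list, 13 members (31.0%) had a summit within 1 kb of either end of the span, against 18.5% of all protein-coding genes and 19.6% of those of like span. In the deficient-diet list 18 members (42.9%) did, against 21.9% and 22.7%. Within 500 bp of an end these shares were 14.3% of members against 12.9% of genes of like span (normal diet) and 26.2% against 14.8% (deficient diet). In both lists 8 members (19%) had a summit within 1 kb, against 8.41% of all protein-coding genes and 8.69% of those of like span: Tgfb1, Tgfb3, Tgfbr3, Bmp7, Smurf1, Nog, Gdf15 and Ltbp1. With the deficient-diet list held to the length of the other, 12 members (28.6%) had one, against 14.6% of genes of like span. Among stronger peaks, with a -log10 q of at least 5, 4 members (9.52%) had a normal-diet and 1 member (2.38%) a deficient-diet summit there. The shares of genes of like span were 7.24% and 5.57%, and these counts of members are too small to give a direction.

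Over all protein-coding genes with a listed start, the share with a summit within 1 kb of an end rose with GC content. Of the 32 members with a listed start, 22 had a promoter window of 60% GC or more. Among all 7300 protein-coding genes with such a window, 26.8% had a normal-diet and 29.8% a deficient-diet summit within 1 kb of an end, and among the 22 members 5 and 9 did. The normal-diet share of these 22 members was thus below that of all such genes, and the deficient-diet share above it. Of 7 members with a window of 50 to 60% GC, 3 had a normal-diet and 2 a deficient-diet summit there. Among all 5240 genes of that band 19.4% and 24.4% did. The 3 members below 50% GC had 0 in either list, against 5.96% and 7.7% of 4951 genes. Tgfb3, Tgfbr3, Bmp7, Nog and Id1, all counted near an end in the normal-diet list, had no listed start and so no GC value. Within 10 kb, 64.0% and 72.6% of the 7300 GC-rich genes had a peak. At that distance the members were not counted by GC content, so no share of GC-rich members stands beside these. The part of GC content in the members' counts was not tested.

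**Figure D4:**
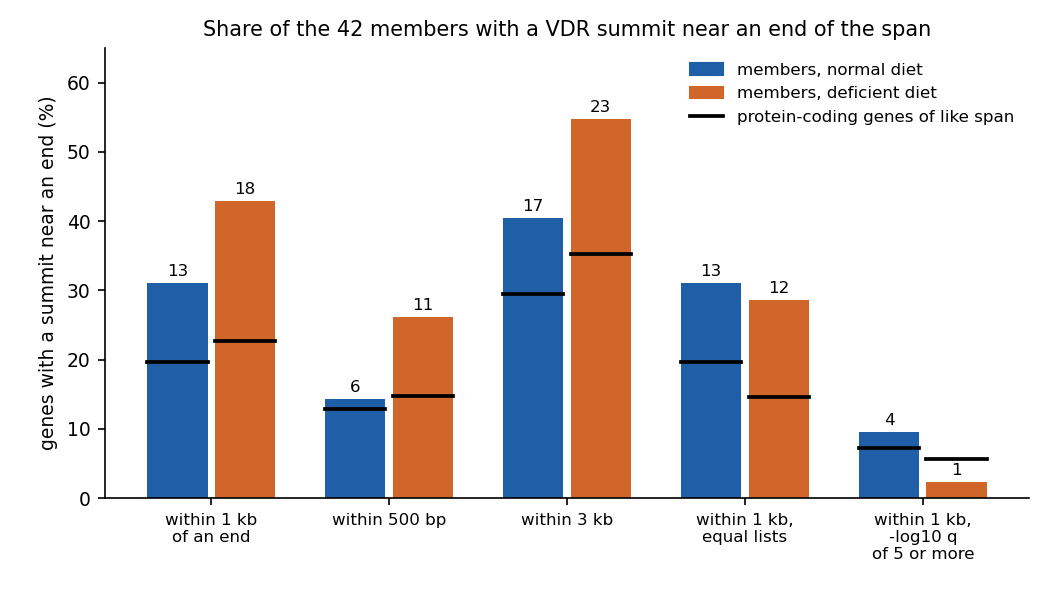
Percent of the 42 members (bars, with the number of members above) with a VDR summit near an end of the gene span, in the normal-diet (blue) and deficient-diet list (orange), by distance or restriction of the lists (horizontal axis). Black lines give protein-coding genes of like span: within 1 kb the bars stand at 31.0% and 42.9% over lines at 19.6% and 22.7%. For peaks with a -log10 q of at least 5 the bars stand for only 4 members and 1 member.

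Position around the start could be read for the members with a listed start. Over 17491 protein-coding genes, summits piled up just downstream of the start: the step from 0 to 250 bp held 50.4 normal-diet and 53.8 deficient-diet summits per 1000 starts, against 24.2 and 25.4 in the step just upstream. Of all normal-diet summits within 1 kb of the nearest listed start of these genes, 63.8% lay between 51 and 1000 bp downstream, and at members 5 of 7 (71.4%) did. Of the deficient-diet ones 66% did over all genes and 11 of 12 (91.7%) at members, at Tgfb1, Bmp6, Bmpr1b, Acvr2b, Eng, Smad3, Grem1, Inhbb, Gdf15 and Ltbp1.

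**Figure D5:**
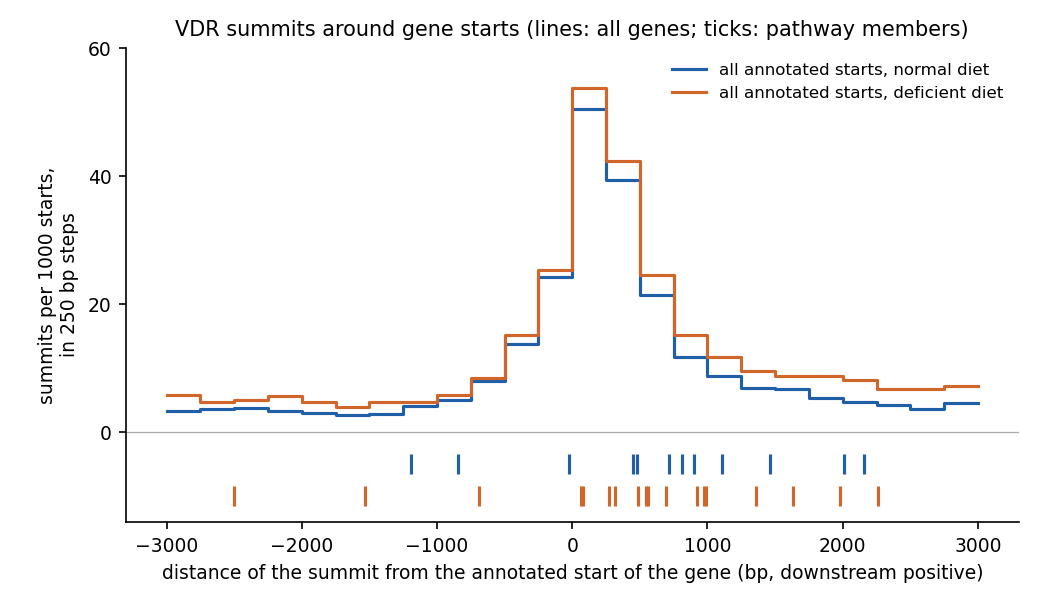
VDR summits per 1000 annotated starts of 17491 protein-coding genes (vertical axis, in steps of 250 bp) by distance from the start (horizontal axis, bp, downstream positive), for the normal-diet (blue line) and deficient-diet list (orange line). Ticks under the lines are single summits at members, measured from the nearest listed start, and of those within 1 kb 5 of 7 (normal diet) and 11 of 12 (deficient diet) lie between 51 and 1000 bp to the right of 0.

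A further 68 genes of the pathway were listed by name, also with earlier results known. Of these, 42 (61.8%) had a normal-diet and 44 (64.7%) a deficient-diet peak, where genes of like span would give 53.1% and 63.2%. Overlapping peaks were found at 23 of them (33.8%, against 23.8%). Near an end, within 1 kb, 16 (23.5%, against 19.9%) had a normal-diet summit and 23 (33.8%, against 23.3%) a deficient-diet one. The most peaks were at Ltbp2, a relative of the latency proteins, with 7 and 13, of which 3 in each list overlapped the other. Ski, which encodes a repressor of SMAD transcription, had 5 and 10, and Lrrc32, which encodes a cell-surface anchor of latent TGF-beta, had 4 and 7. The highest -log10 q at these 68 genes in the deficient-diet list was 11.04, at Bmp8b.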

How the data were processed

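VDR ChIP-seq peak lists of 2 libraries were used, 1 per diet, grouped by the tissue labels. Per the file headers the build is mm10; MACS2 and SAMtools are named in the submitters' processing notes, without version, role or settings, and the aligner and the control library are not given in the sources used here. The deposited values are a fold enrichment (a ratio over local background), a -log10 p and a -log10 q per peak, computed by the authors and used here within each list to describe, rank or filter peaks. In the normal-diet list the end and the score are joined by a point and were split there, and 1 peak without a start was left out.

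Pileup k and background b at the summit were recovered from fold = (k + 1)/(b + 1) and a Poisson p for a pileup above k. A whole k matched the deposited -log10 p to within 0.000293 in every peak. Depth is known only through these values. Spans came from the RefSeq table of GRCm38.p6, and all 42 members and 68 further genes matched by symbol. Genes of like span were all protein-coding genes within 1.25 times of a member's span, averaged over members, in place of random draws. Peaks overlapping by 1 bp were called shared, and intervals are 95% Clopper-Pearson intervals. Positions and strengths were given for the main peaks of members with overlapping peaks, with the most peaks of their role, with the strongest peaks or with a summit within 1 kb of an end, and members without a peak were named with their nearest summits. The 42 members and the 68 further genes were listed by gene name with earlier results of these data known. No reference genome was used, so the planned motif search covered the RefSeq promoter windows and not the peaks. Counting was tested on simulated peaks. Python 3.11.15, pandas 2.3.3, NumPy 2.4.6 and SciPy 1.17.1 were used.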

Additional observations from a re-analysis of the deposited data

How the results depend on the processing

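Of 56 values recomputed for 9 results under 11 alternatives, 39 stayed within 1.5 times of the count, or within the 95% interval of the median strength, and 17 moved. The nearest-gene restriction and all alternatives for gene ends were chosen after seeing the data. In the written plan the limit of 1 kb from an end served to choose which members to describe, and no count near ends was listed. No paired analysis was possible because the groups hold 1 library each. For peaks with a -log10 q of at least 5, with fewer peaks by construction, 11 and 9 members had a normal-diet and a deficient-diet peak, with 17 and 13 peaks of median strength 6.22 and 5.82. The members' shares, 26.2% and 21.4%, then did not exceed the 27.9% and 28.6% of genes of like span. At that strength, 1 member had an overlapping peak, and 4 and 1 had a summit within 1 kb of an end. A window of 50 kb gave 144 and 191 peaks and 23 members with an overlap, and lists of equal length left 49 deficient-diet peaks, both by construction. With equal lengths, 20 members (47.6%) had a deficient-diet peak, against 52.7% of genes of like span. Overlap by 50% of both peaks gave 8 members and summits within 100 bp gave 4. A limit of 500 bp from an end gave 6 (14.3%) and 11 (26.2%) members, against 12.9% and 14.8% of genes of like span. With few fragments per peak, a peak missing from 1 list does not show that the site was unoccupied.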
